A study of Homo sapiens with 10 samples.

Results

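Poly(A) peaks lying just upstream of protein-coding genes were examined in IMR-32, a human neuroblastoma cell line. A peak was included if its summit lay 1 to 3000 bp upstream of the canonical transcript start of a protein-coding gene (GENCODE 44), inside no protein-coding gene body and outside the windows from 200 bp before to 600 bp after every protein-coding transcript end. Of the 178837 peaks in the list, 2889 met this rule. They lay upstream of 2338 genes by nearest start, out of 20033 with a canonical start. Most of these genes (1866) had 1 such peak, 402 had 2, 61 had 3 and 9 had 4. A further start lay within reach of 126 of the peaks, and 37 lay between a pair of starts pointing away from each other.

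The libraries were made by poly(A) 3′-sequencing, in which an oligo(dT) primer anneals to the tail of polyadenylated RNA and reading begins beside the cleavage site. Cells were transduced with an shRNA to CDK12 (sh22 or sh98), to CDK13 (sh701 or sh704) or to GFP (shGFP, the control) and selected with puromycin, with 2 libraries for each shRNA and 10 in all. All came from pools of transduced cells of 1 line, and an shRNA lowers its target without deleting it; the extent of the knockdown was not analysed here. Peaks were called once on the merged reads of all 10 libraries, so a peak has a single value for the pool, no spread between replicates, no strand and no share from any group. From this list the 3 conditions could not be compared. The libraries had been downsampled to the size of the smallest, a size that the list does not give. Strand-specific coverage tracks named in the sample labels were not analysed here. Peaks and genes are not independent replicates.

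The listed adrenergic neuroblastoma markers all had peaks at their ends, and so did some mesenchymal ones. The highest pileup, meaning the number of overlapping reads at a summit, in the end windows of the adrenergic markers was 114 reads for PHOX2A, 46 for HAND2, 60 for GATA3, 16 for ISL1, 17 for DBH, 54 for STMN2, 52 for ELAVL4 and 73 for MYCN. Of the mesenchymal markers, PRRX1 and SNAI2 had no peak at their ends, whereas FOSL1 reached 17 reads and VIM 36, as high as or higher than ISL1 and DBH. SNAI2 had 1 upstream peak, of 9 reads. Both knocked-down genes had peaks at their ends in the pool, of 22 reads for CDK12 and 34 for CDK13. Peak height levels off among tall peaks, so pileups here and below are not amounts of RNA.

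RNA polymerase II often starts in both directions at a promoter, and the upstream antisense RNA (also called a PROMPT) is usually short, capped and soon degraded by the nuclear exosome. Early cleavage at poly(A) signals, which are met often in the upstream direction where 5′ splice sites bound by U1 snRNP are sparse, is a known way in which such transcription ends. The same kind of read can also arise when the oligo(dT) primer anneals to a run of A inside an RNA, or at the end of a longer RNA that enters the region from a neighbouring gene. The 3′ ends of some upstream transcripts are annotated as long noncoding RNAs (lncRNAs), many of them divergent (-DT) or antisense (-AS) partners of the coding gene.

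Because the list had no strand, the sequence at each end of a peak was read on both strands. On either strand, a core signal was AATAAA or ATTAAA starting 40 to 10 bases upstream of the 3′ edge of the peak, and a site was A-rich if at least 7 of the 10 genomic bases beyond that edge were A, a place where the primer could anneal. Antisense here means opposite to the gene whose start is nearest. The following stretches of GRCh38 hold 60 bases before and 20 bases after the 3′ edge and show 3 of the 5 peaks of highest −log10 q-value in each of 3 classes. The first set shows a core signal on the antisense strand, with the hexamer in capitals.
ZIC2, antisense, chr13:99979340-99979419, minus strand: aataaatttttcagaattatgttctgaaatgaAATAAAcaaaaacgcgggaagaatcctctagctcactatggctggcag
FNDC3A, antisense, chr13:48974935-48975014, minus strand: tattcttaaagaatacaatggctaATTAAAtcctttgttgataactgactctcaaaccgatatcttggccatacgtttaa
HK2, antisense, chr2:74832629-74832708, minus strand: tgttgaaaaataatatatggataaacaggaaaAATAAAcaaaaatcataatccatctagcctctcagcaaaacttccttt
The second set shows a core signal on the strand of the gene itself, again in capitals.
GABBR1, sense, chr6:29635418-29635497, minus strand: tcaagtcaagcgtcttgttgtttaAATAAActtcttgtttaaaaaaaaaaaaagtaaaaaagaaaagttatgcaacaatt
HLA-E, sense, chr6:30486894-30486973, plus strand: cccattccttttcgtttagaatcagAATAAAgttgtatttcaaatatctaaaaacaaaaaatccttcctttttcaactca
CHRNA3, sense, chr15:78622296-78622375, minus strand: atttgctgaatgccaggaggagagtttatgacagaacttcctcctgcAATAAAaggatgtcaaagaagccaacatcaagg
The third set is A-rich on the antisense strand without a core signal, and capitals mark the 10 bases beyond the 3′ edge.
ZNF528, A-rich, chr19:52397482-52397561, minus strand: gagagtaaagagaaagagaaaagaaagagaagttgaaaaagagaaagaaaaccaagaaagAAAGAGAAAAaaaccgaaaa
PARP2, A-rich, chr14:20343044-20343123, minus strand: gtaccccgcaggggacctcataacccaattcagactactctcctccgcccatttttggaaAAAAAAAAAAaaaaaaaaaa
CYREN, A-rich, chr7:135172415-135172494, plus strand: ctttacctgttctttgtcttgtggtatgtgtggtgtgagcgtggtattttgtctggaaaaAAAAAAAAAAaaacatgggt

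In the first set the bases that follow the edge are mixed, whereas in the third set they continue as an A-rich run in genomic DNA. The stretch at GABBR1 is intermediate, since a run of A lies before the edge and 6 of the 10 bases beyond it were A, 1 short of the limit. A match to a hexamer is a description of the sequence and does not by itself show that cleavage took place there.

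To ask on which strand the upstream RNAs were likely to have been read, core signals were counted on both. A core signal stood at the antisense 3′ edge of 983 of the 2889 peaks (34.0%, 95% Wilson interval 32.3% to 35.8%) and at the sense 3′ edge of 330 (11.4%, 10.3% to 12.6%). It was on the antisense strand only for 916 peaks, on the sense strand only for 263 and on both for 67. Among the 1179 peaks with a signal on 1 strand, 77.7% thus had it antisense to the gene (75.2% to 80.0%; exact two-sided McNemar test over peaks, adjusted p = 1.68e-84). Read upstream of the summit instead, the signal was antisense in 41.3% of 640 such peaks, the opposite direction, but at gene ends of known strand that reading picked the gene's own strand in only 32.4%. At all positions where a peak could have been counted, the same window held a core signal in 3.73% on the antisense and 3.93% on the sense strand, so the strands differed little there and in the opposite direction. These intervals reflect counting error alone.

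The core signals were placed as at the ends of genes. On the antisense strand they were most frequent 23 bases before the 3′ edge, and 23.3 per 100 peaks started 25 to 15 bases before it, compared with 6.47 on the sense strand. At 16102 peaks in the end windows of coding genes, where the strand is known, the profile also had its maximum at 23 bases, with 33.7 per 100 peaks on the gene's own strand and 3.01 on the opposite one at 25 to 15 bases. Of these end peaks, 59.9% had a core signal on their own strand and 7.27% on the other, and where only 1 strand had it, that was the gene's own in 94.9% of 9432. AATAAA was the nearest core hexamer at 617 of the 801 upstream peaks with antisense evidence, defined below, and ATTAAA at 184.

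Runs of A were also more frequent on the antisense strand. The 10 bases beyond the edge were A-rich on the antisense strand at 913 peaks (31.6%) and on the sense strand at 323 (11.2%), while 2.31% and 2.39% of all eligible positions were. Of the 1196 peaks that were A-rich on 1 strand, 893 were so on the antisense strand (74.7%, 72.1% to 77.0%; exact two-sided McNemar test, adjusted p = 1.52e-67). The antisense excess was therefore present both at sites with a poly(A) signal and at sites where priming within an RNA could occur, and an RNA primed at an internal run of A need not end there. With the A-rich peaks left out, 771 of 972 peaks with a core signal on 1 strand had it antisense (79.3%). Among the strongest peaks, with a −log10 q of 20 or more, those A-rich on the antisense strand were 20 of 31 (64.5%; exact McNemar test, adjusted p = 0.160).

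The peaks were then sorted into 5 sequence classes. A core signal with fewer than 7 A beyond the edge, on the antisense strand only, was found at 801 peaks (27.7%, antisense evidence), on the sense strand only at 230 (7.96%, sense evidence) and on both at 57 (1.97%). A further 1157 peaks (40.05%) were A-rich with no such signal on either strand. The remaining 644 (22.3%) had neither. Of the 230 peaks with sense evidence, 78 (33.9%) lay 600 to 10000 bp past the end of another coding gene on the sense strand, and of the 801 with antisense evidence 107 did (13.4%). With all peaks past another gene's end left out, 82.3% of 934 peaks with a core signal on 1 strand had it antisense.

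Upstream peaks were most dense from 251 to 1000 bp before the start. Per Mb of eligible sequence there were 39.8 peaks at 1 to 250 bp, 104 at 251 to 500 bp and 118 at 501 to 1000 bp, followed by 96.6, 79.0, 60.1 and 56.1 in successive steps of 500 bp up to 3000 bp. The density over the whole range was 83.5 per Mb, against 5.45 per Mb in sequence more than 10 kb from any gene. The share of all eligible positions with an antisense core signal was lowest next to the start, at 1.27% within 250 bp, and 4.25% at 2501 to 3000 bp. The share of peaks with an antisense core signal and an A-poor flank was 21.5% of the 107 peaks within 250 bp and 28.7% to 31.8% in the other ranges. Split at 1000 bp, it was 28.6% of 1119 peaks within 1000 bp and 30.4% of 1770 farther out, a difference of -1.80 percentage points (Newcombe 95% interval -5.17 to 1.63; Fisher's exact test, adjusted p = 0.316), which was not detectable at this number of peaks.

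The path from the start to the antisense signal was read for the 801 peaks with antisense evidence. The median distance from the start to the signal was 1323 bp. In 339 of them (42.3%) the signal used was the first core hexamer met on the antisense strand, and in 203 exactly 1 came before. The motif GTAAGT, which matches the consensus of a 5′ splice site and was read here on the antisense strand, was absent before the signal in 671 (83.8%). Before the signal there were 0.921 core hexamers and 0.137 GTAAGT per kb. No share expected for paths of this length was computed, so neither the 42.3% nor the 83.8% shows an excess or a lack. Among genes with a poly(A) peak at their end, the 3000 bp upstream held 1.60 core hexamers per kb on the antisense strand for the 581 genes with antisense evidence, 1.37 for the 1778 with any upstream peak and 1.21 for the 4790 without one. The corresponding values for GTAAGT were 0.163, 0.153 and 0.142 per kb, of which the last is close to the 0.137 before the signal. On the sense strand of the 3000 bp downstream of the start, the same 3 sets held 0.855, 0.856 and 0.865 core hexamers and 0.194, 0.193 and 0.191 GTAAGT per kb. No test was made of these differences, because the first set was chosen by the presence of a core hexamer.

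Upstream peaks were then compared with 3 other classes of peak by Fisher's exact test, adjusted over all 15 tests. A core signal with an A-poor flank on either strand was present at 37.7% of upstream peaks, against 22% of all peaks on the chromosomes. The share was 20.05% of 4584 peaks 1 to 2000 bp inside genes, a difference of 17.6 percentage points (15.5 to 19.7; Fisher's exact test, adjusted p = 2.04e-61). Against the 18.7% of 5106 peaks more than 10 kb from any gene the difference was 18.9 points (16.9 to 21.0; Fisher's exact test, adjusted p = 5.86e-75). The nearest class was peaks 600 to 10000 bp past gene ends, with 33.2% of 4891, from which upstream peaks differed by 4.50 points (2.30 to 6.71; Fisher's exact test, adjusted p = 8.15e-05).

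Upstream peaks were the least often A-rich of the 4 classes. An A-rich flank on either strand was found at 42.1% of them and at 60.1% of all peaks on the chromosomes. By Fisher's exact test this share was below the 45.7% of the peaks inside genes (adjusted p = 0.00276), the 49.4% of those past ends (adjusted p = 7.53e-10) and the 70.5% of those far from genes (adjusted p = 4.02e-136). A pileup of at least 9 reads, the median of all peaks, was reached by 58.0% of upstream peaks and by 28.9% of peaks far from genes (Fisher's exact test, adjusted p = 3.34e-143). This share was lower than the 62.5% of peaks inside genes (Fisher's exact test, adjusted p = 0.000124) and the 60.5% past ends (adjusted p = 0.0317). The last difference did not pass among peaks with a −log10 q of 5 or more (Fisher's exact test, adjusted p = 0.0754).

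Most upstream peaks were low. Their median pileup was 9 reads (10th percentile 5, 90th percentile 19, highest 90), compared with 18 at gene ends of known strand. The median fold over the local background was 6.17 and the median width 107 bp. The median pileup was 10 reads for peaks with antisense evidence, 10 with sense evidence, 9 for A-rich peaks and 10 for those with neither. The 99th percentile was 32 reads with antisense evidence, 39.1 with sense evidence, 25.4 when A-rich and 43.6 with neither, and no test was made between these classes. A −log10 q of 20 or more was found for 163 upstream peaks (5.64%) and for 7.19% of all peaks on the chromosomes.

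Many upstream peaks lay in annotated lncRNAs. Of the 2889 peaks, 1230 (42.6%) lay in a lncRNA gene, as did 21.1% of eligible positions, 1586 (54.9%) in no annotated gene of any kind and 73 in other genes. In the 1186 peaks with lncRNAs on 1 strand only, the lncRNA was antisense to the coding gene for 1079 (91.0%, 89.2% to 92.5%). Of the eligible positions with lncRNAs on 1 strand only, 89.1% were antisense as well, so this orientation was close to that of the annotation itself. Of the 1186 peaks, 516 had a core signal on 1 strand only, and for 456 of these (88.4%) it was the strand of the lncRNA. Both the lncRNAs and the core signals were mostly antisense, so a high share follows from that orientation alone. In antisense lncRNAs the signal was antisense only at 427 peaks and sense only at 46. In sense lncRNAs it was sense only at 29 and antisense only at 14. Within lncRNA genes, 703 of 1230 peaks (57.2%) lay outside every annotated lncRNA end window. In peaks of no annotated gene, those with a core signal on 1 strand had it antisense in 441 cases and sense in 175 (71.6%; exact McNemar test, adjusted p = 3.64e-27). The median pileup was 11 reads in lncRNA genes and 8 in no annotated gene.

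The peaks of highest −log10 q-value with antisense evidence lay upstream of genes of several functions. ZIC2, a zinc finger transcription factor of neural development, had a peak of 49 reads at 2336 bp, inside a minus-strand lncRNA, and 43 reads at its own ends. FNDC3A, a fibronectin type III domain protein, had one of 43 reads at 866 bp, against 26 reads at its ends. HK2, a hexokinase that carries out the first step of glycolysis, had one of 43 reads at 1431 bp inside HK2-DT, against 32. SLC7A2, a transporter of cationic amino acids, had 27 reads at 1911 bp and no annotated gene there, and IFNAR1, a subunit of the type I interferon receptor, had 29 reads at 802 bp. In ZIC2, FNDC3A, HK2 and SLC7A2 the upstream peak was thus higher than any peak at the gene's own ends (22 reads for SLC7A2), while in IFNAR1 it was slightly lower (31 reads at the ends). Because peak height levels off, this does not show that the upstream RNA was more abundant than the RNA of the gene.

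Peaks with sense evidence included several beside other genes. CHRNA3, the alpha 3 subunit of the neuronal nicotinic acetylcholine receptor, had 4 upstream peaks of 42, 55, 68 and 40 reads at 981, 1403, 1755 and 2461 bp. All of them lay past the end of CHRNB4, the beta 4 subunit gene, which points the same way and whose end was 2134, 1712, 1360 and 654 bp from the summits. The peaks at 1403 and 2461 bp had a core signal on the sense strand and the other 2 had none on either strand, and 38 reads were seen at the ends of CHRNA3. An RNA of CHRNB4 that runs past its annotated end and one that ends before CHRNA3 for another reason cannot be told apart without strand and read length. The sense peaks of EFCAB8 (26 reads) and CORIN (28 reads) lay 8276 bp past the end of MAPRE1 and 7020 bp past that of NFXL1, both on the strand of the downstream gene, and each was also inside a lncRNA of that strand. The sense peaks of GABBR1, a GABA-B receptor subunit (40 reads at 2324 bp), and HLA-E, a non-classical MHC class I protein (24 reads at 2619 bp), lay within 10 kb past no other coding end. HLA-E had no peak at its own ends.

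OTUD6B, a deubiquitinase, had 4 peaks of 25 to 33 reads, all inside OTUD6B-AS1 on the opposite strand. Of these, 1 had a core signal antisense to the gene and 3 were A-rich on the antisense strand. RSPH10B2 had 4 peaks of 14 to 23 reads inside a lncRNA of its own strand, none with antisense evidence. This gene has a near-identical copy, RSPH10B, so its reads may be shared between the copies.

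Some of the tallest upstream peaks lay in genes of small structured RNAs that end without a poly(A) tail in their mature form. There were 14 such peaks, 7 of them with at least 20 reads. The highest pileup among all 2889 peaks, 90 reads at 570 bp from GSTA4, lay in RN7SK, the RNA that holds the kinase complex P-TEFb inactive, and had no core signal and no A-rich flank. The peak of 43 reads upstream of PARP2, a poly(ADP-ribose) polymerase of DNA repair, lay in RPPH1, the RNA of RNase P. It ended at 10 of 10 A on the antisense strand, as printed above. The peaks of NEMF (36 reads) and CCDC107 (20 reads) lay in RN7SL3, a signal recognition particle RNA, and RMRP, the RNA of RNase MRP. RN7SK and RN7SL3 have many near-identical copies in the genome, so their reads are uncertain. ZNF528, a zinc finger protein, had 63 reads at 264 bp in ZNF528-AS1 with 8 of 10 A on the antisense strand, and CYREN, a regulator of DNA end joining, had 35 reads with 10 of 10. The CYREN peak lay 6170 bp past the end of TMEM140, on the antisense strand, and the GSTA4 peak 5425 bp past that of CILK1, on the sense strand. Tall peaks with neither a core signal nor an A-rich flank also lay upstream of TBC1D22A (40 reads), SAV1, a scaffold of the Hippo pathway (39 reads), and ANKHD1 (44 reads), in each case in an antisense lncRNA.

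Genes with an upstream peak were mostly genes with RNA in these cells. Among genes with at least 2500 eligible bases upstream, 1778 of 6568 with a poly(A) peak at their own end had an upstream peak (27.1%) and 288 of 4240 without one had (6.79%), a difference of 20.3 percentage points (19.0 to 21.6; Fisher's exact test over genes, adjusted p = 2.29e-168). By the highest pileup at the gene's ends, the share was 19.6% of genes with 1 to 15 reads, 29.4% with 16 to 30, 31.7% with 31 to 60 and 29.3% of the 99 genes with 61 to 200. The share with antisense evidence was 1.20% of genes without an end peak and 11.5% at 31 to 60 reads. CpG-rich promoters (at least 55% GC and an observed to expected CpG ratio of at least 0.6 within 500 bp of the start) more often had an upstream peak, 28.4% of 5220 against 21.96% of 1348 others with an end peak (difference 6.43 points, 3.85 to 8.90; Fisher's exact test, adjusted p = 2.57e-06). The height of the end peaks was not held equal between these genes, and its part in this difference was not tested.

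The adrenergic neuroblastoma transcription factors were among the genes with upstream peaks. Of 15 listed genes, 5 had one (33.3%), compared with 12.2% of all coding genes and 15.9% of those with a peak at their end. Among those with at least 2500 eligible bases upstream it was 5 of 9, beside 27.1% of all such genes with an end peak, and no test was made of the list. MYCN, the oncogene amplified in these cells, had a peak of 74 reads and 448 bp at 618 bp upstream, in the antisense lncRNA MYCNOS, with no core signal on either strand and 5 of 10 A on the antisense strand, and 73 reads at its own ends. Gene copies and RNA per copy cannot be told apart for MYCN. HAND2 had 45 reads at 2344 bp in HAND2-AS1 and GATA2 had 17 at 2940 bp in GATA2-AS1, both without a core signal. TBX2 had 3 peaks of 13 or 14 reads, all in the antisense lncRNA TBX2-AS1 and without a core signal on either strand. Some of these also lay in a lncRNA of the sense strand, and all lay 5048 to 5999 bp past the end of BCAS3, on the sense strand.

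The kinases and cyclins of transcription had upstream peaks in 5 of 16 genes (31.25%, beside the 12.2% of all coding genes and 15.9% of those with an end peak), and in 3 of the 10 with at least 2500 eligible bases, where 27.1% of all such genes with an end peak had one. CDK13, a target of the knockdown, had a low one of 5 reads at 1335 bp in CDK13-DT, with a core signal on the antisense strand. CDK12 had no upstream peak, although all 3000 bases before its start were eligible. CCNL1 had 17 reads at 2332 bp with antisense evidence. The peaks of CCNT2 (11 reads) and CCNH (9 reads) were A-rich, and CCNT1, the main partner of CDK9, had 7 reads with sense evidence.

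Genes of RNA 3′-end formation and decay had upstream peaks in 3 of 21 cases for cleavage and polyadenylation (14.3%), 5 of 22 for the nuclear exosome and its adaptors (22.7%) and 3 of 13 for U1 snRNP (23.1%), beside 15.9% of all genes with an end peak. Among genes with at least 2500 eligible bases these were 1 of 7, 3 of 7 and 3 of 7, beside 27.1% of all such genes with an end peak, and no test was made of the lists. Of all 2441 genes with an upstream peak, 30.5% had one with antisense evidence. All 3 cleavage and polyadenylation genes had antisense evidence: CSTF3, a cleavage stimulation factor subunit (11 reads in CSTF3-DT), XRN2, the exonuclease that trails cleaved RNA (11 reads), and the poly(A) polymerase PAPOLA (5 reads). Those of the nuclear exosome and its adaptors included EXOSC10, an exosome nuclease (14 reads in EXOSC10-AS1), and ZC3H18, an adaptor (13 reads), both with antisense evidence, and NCBP2 of the cap-binding complex (15 reads, neither feature). The EXOSC10 peak also lay 4487 bp past the end of MTOR, on the sense strand, and the NCBP2 peak 1305 bp past that of NCBP2AS2, on the antisense strand. In the U1 snRNP list, SNRNP70 had A-rich peaks of 8 and 7 reads, LUC7L3 an A-rich peak of 13 reads and LUC7L a peak of 10 reads with sense evidence.

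DNA repair genes were of interest in the study. Of 34 genes of homologous recombination and the Fanconi anemia pathway 5 had an upstream peak (14.7%, all 34 with a peak at their ends), and of 24 checkpoint and replication genes 4 had (16.7%). Among genes with at least 2500 eligible bases upstream these were 5 of 14 (35.7%) and 4 of 10, against 27.1% of all such genes with a peak at their end, and no test was made of so few genes. XRCC2, a protein of homologous recombination, had an A-rich peak of 23 reads at 286 bp. FANCL, the ubiquitin ligase of the Fanconi pathway, had 9 reads at 286 bp with antisense evidence and its E2 partner UBE2T had 7 with neither feature. TOPBP1, an activator of ATR (13 reads), MCM3, a helicase subunit (10 reads), and the kinase WEE1 (5 reads) had antisense evidence, and RNF8 (5 reads) was A-rich. Of 18 immediate early genes 3 had a peak (16.7%, and 3 of 11 with at least 2500 eligible bases, close to the shares over all genes with an end peak): EGR3 with 10 reads and antisense evidence, KLF6 with 2 peaks of 15 reads each, of which the nearer had sense evidence, and ZFP36 with 5 reads.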

How the data were processed

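The authors trimmed the reads, mapped them to GRCh38 with STAR 2.5.1b and merged all 10 libraries, with the knockdown libraries downsampled to equal size. They called peaks with MACS2 2.1.1, with reads extended to 100 bp. The paper also describes removing, as false positives, peaks without a poly(A) signal motif that had a genomic stretch of A downstream. Whether the list used here was made before or after that step was not checked. SAMtools and deepTools 2.5.4 are also named in the submitters' processing notes. The deposited fold is the ratio of the pileup to the local background. The deposited p-value and q-value are −log10 values of a Poisson test of the pileup. The deposited offset of the summit is in bases.

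The pileup was recovered from fold and p-value (largest miss of −log10 p 0.000146). Eligible positions met the rule for summits. Fisher's exact, exact McNemar and exact binomial tests were adjusted by Benjamini-Hochberg over 15 tests, with a threshold of 0.05, with scipy 1.17.1 under Python 3.11.15 (pandas 2.3.3, numpy 2.4.6, matplotlib 3.10.9), and the steps were tested on simulated data. The binomial test of lncRNA orientation against 50% is not quoted, since the annotation is itself mostly antisense. Wilson and Newcombe intervals are at 95%. Named were, by −log10 q, the 5 highest peaks of each of 4 classes and of those in lncRNA genes, the 3 genes with most peaks (of 9 tied at 4, those whose highest peak had the largest −log10 q), and peaks of listed genes at a −log10 q of at least 5. CDK13, CCNT1, PAPOLA, UBE2T, WEE1, RNF8, ZFP36, NEMF and CCDC107 were added after their values were seen. Members, lists and tests were chosen with earlier results of these data known. Some genes that the rule names are not reported here.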

Additional observations from a re-analysis of the deposited data

How the results depend on the processing

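Of 56 recalculations, each of 1 result under 1 alternative setting, 51 kept direction, side of the threshold and, for the number of peaks, size. Read within 100 bases upstream of the summit instead of the 3′ edge, the core signal was on the antisense strand in 41.3% of 640 peaks with it on 1 strand, a reversal. At gene ends of known strand the same summit reading picked the gene's own strand in 32.4%, compared with 94.9% for the reading at the 3′ edge. The core signal share was 71.6% to 82.3% under the other alternatives. The A-rich share fell to 64.5% at a −log10 q of 20 or more, where it no longer passed, and was 71.6% to 79.1% under the others. The cause was not tested, but 31 peaks were left. At a −log10 q of 5 or more, the pileup difference from peaks past gene ends was -2.09 points and no longer passed (Fisher's exact test, adjusted p = 0.0754). The number of upstream peaks was 163 at a −log10 q of 20 or more and 1119 within 1000 bp of the start. Peaks in no annotated gene and peaks of at most 150 bp were alternatives chosen after seeing the data. No paired analysis was possible because the peak list used was called on merged reads with no value per library, which also meant that no replicate could be left out. Pooled depth limits the detection of low upstream RNAs. A gene without an upstream peak may have one below the calling threshold.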
